A study of Mus musculus with 168 samples.

Results

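The 7 genes described here encode 6 enzymes that build cholesterol and 1 regulator that holds the pathway in check. They are Hmgcs1, Idi1, Fdft1, Sqle, Lss, Cyp51 and Insig1. Each was found by its symbol in the annotation of the array's probe sets, and all 7 of 7 were present among 19752 genes with a probe set of 1 symbol. Idi1 and Fdft1 had a pair of probe sets each, and the brighter on average was used. Hmgcs1 was read from probe set 10412466, Idi1 from 10482762, Fdft1 from 10412909, Sqle from 10424349, Lss from 10364194, Cyp51 from 10527920 and Insig1 from 10520362.

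The study asked what blocking Janus kinases, the kinases bound to cytokine receptors, does to gene expression in the immune cells of living mice. Male C57BL/6 mice, 6 weeks old, were gavaged with a vehicle or with 1 of 5 inhibitors known here only by their code names, SB00513404, SB00526221, SB00526222, SB00526226 and SB00526228, for which no structure is given. Messenger RNA of sorted cells was measured on Affymetrix Mouse Gene 1.0 ST arrays, from 80 animals of 7 experiments named J2 to J25. Plain vehicle (0.5% MC) gave 39 arrays and a vehicle of pH 3 gave 7, while SB00513404 gave 20, SB00526221 32, SB00526222 43, SB00526226 18 and SB00526228 9. The sorted populations were F4/80+ macrophages from the peritoneal cavity (33 arrays; F4/80+ ICAM2+ in experiments J23 and J25) and from the spleen (33 arrays), and from the spleen FLT3+ dendritic cells (20 arrays), NK1.1+ natural killer (NK) cells (27 arrays), CD4+ T cells (39 arrays) and Ly6G+ granulocytes (16 arrays).

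Mice received 1 treatment and were taken after 1.5, 3 or 6 h (called early here) or after 18, 19 or 28 h (late), or 3 treatments with cells sorted 4 h after the last, or 14, 15 or 28 treatments with cells sorted 14 to 18 h after the last (prolonged). Plain vehicle was given on the early and prolonged schedules and, for peritoneal macrophages, on the late one. No vehicle array of the 4 h schedule was at hand: all 4 h inhibitor arrays came from experiment J2 and were set against prolonged vehicle. In every 4 h comparison with vehicle the inhibitor and the schedule therefore cannot be told apart. A single animal often gave arrays of several cell types, and p-values measure the spread between arrays. In sorted bulk samples, fewer cells of a type and less RNA per cell cannot be told apart.

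Cells make cholesterol from acetyl-CoA through mevalonate, the isoprenoids, squalene and lanosterol. The genes of this pathway are switched on together by the transcription factor SREBP-2, which its escort SCAP carries out of the endoplasmic reticulum when sterols are low, and INSIG proteins hold the escort back when sterols are high. Immune cells raise the pathway when they grow and divide, and lower it in antiviral interferon responses, in which cytokine receptors signal through Janus kinases.

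All values are log2 intensities, so that a difference of 1 is a doubling, and levels of different genes were not compared. Array medians lay between 6.90 and 7.15, and a probe set below the median of its array is called dim here. Dendritic cells, NK cells, T cells and granulocytes carried their own marker genes, with median list levels of 11.69, 12.175, 12.32 and 12.93. Macrophage arrays labelled spleen could not be told from peritoneal ones by their defining markers: Gata6, a transcription factor of peritoneal macrophages, was at 11.14 ± 0.27 (SD, n = 33) in the spleen and 11.17 ± 0.23 (SD, n = 33) in the peritoneal arrays, against means of 6.18 to 7.10 in the other populations. Vcam1, a marker of splenic red pulp macrophages, was at 5.99 and 6.06 in these macrophage populations and at 8.03 in dendritic cells. One library stood apart: the single CD4+ T cell array of SB00526228 had a granulocyte marker level of 9.93, where all other T cell arrays lay between 5.92 and 6.66, and a dendritic cell marker level of 9.61 against 6.00 to 7.10.

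The promoters of 5 of the 7 genes were found in the RefSeq table (build GRCm38.p6), and Sqle and Fdft1 had no entry. The 250 bases before the start of 4 genes are shown because the pathway is known for its shared promoter control. Capitals mark matches, on either strand, to the sterol regulatory element core TCACNCCAC, to CCAAT (the motif of NF-Y, a partner of SREBP) and to the GC box GGGCGG. The windows lie at chr13:119690101-119690350 on the plus strand for Hmgcs1, chr13:8885356-8885605 on the plus strand for Idi1, chr5:4104698-4104947 on the minus strand for Cyp51 and chr5:28071162-28071411 on the plus strand for Insig1.
Hmgcs1: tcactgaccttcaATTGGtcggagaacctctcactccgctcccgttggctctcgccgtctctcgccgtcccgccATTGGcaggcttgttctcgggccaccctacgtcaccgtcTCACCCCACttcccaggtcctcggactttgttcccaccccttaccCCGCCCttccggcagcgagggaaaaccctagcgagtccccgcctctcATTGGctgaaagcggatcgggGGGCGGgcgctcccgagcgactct
Idi1: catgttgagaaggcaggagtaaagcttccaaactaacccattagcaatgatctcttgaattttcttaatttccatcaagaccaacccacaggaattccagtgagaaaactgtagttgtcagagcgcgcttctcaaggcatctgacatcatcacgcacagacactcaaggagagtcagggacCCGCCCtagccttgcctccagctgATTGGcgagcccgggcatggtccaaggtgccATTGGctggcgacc
Cyp51: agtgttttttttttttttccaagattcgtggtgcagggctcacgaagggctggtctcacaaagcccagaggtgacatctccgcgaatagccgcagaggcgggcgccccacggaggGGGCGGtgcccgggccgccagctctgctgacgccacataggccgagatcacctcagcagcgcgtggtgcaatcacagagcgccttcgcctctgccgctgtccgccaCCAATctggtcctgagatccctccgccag
Insig1: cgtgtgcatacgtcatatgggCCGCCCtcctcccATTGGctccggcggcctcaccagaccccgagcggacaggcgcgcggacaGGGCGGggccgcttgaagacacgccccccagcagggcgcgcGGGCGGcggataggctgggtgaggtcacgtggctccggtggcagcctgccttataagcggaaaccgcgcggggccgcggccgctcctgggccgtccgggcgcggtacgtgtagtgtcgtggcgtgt
Hmgcs1 held 3 copies of CCAAT read on the opposite strand. The sterol regulatory element core was in 1 of the 5 windows, that of Hmgcs1, at position -137 from its start. That core was in 1.05% of 32851 promoter windows of the same length. CCAAT was in 5 of the 5 windows, Lss (chr10:76531355-76531604, plus strand) included, against 33.8% of all windows, and GGGCGG in 5 of 5 against 32.7%. The matches in these 5 windows did not overlap one another. G and C made up 51.2% of the Idi1 window, below the median of 52.4% over all windows, and 62.8% (Cyp51) to 73.6% (Lss) of the other 4. These matches describe the letters of the windows and do not measure binding.

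In vehicle mice Hmgcs1, Idi1, Fdft1 and Cyp51 stood highest in dendritic cells and CD4+ T cells and lowest in granulocytes. Sqle was highest in the same cells and lowest in NK cells, Lss was highest in T cells with dendritic cells among the others, and Insig1 was highest in macrophages. All 7 genes were higher in dendritic cells than in granulocytes and all 7 were higher in T cells than in granulocytes. The fitted difference of Idi1 between dendritic cells and granulocytes was 5.80-fold, with Idi1 below the array's median on all 5 granulocyte arrays, and Insig1 was 5.04-fold higher in peritoneal macrophages than in granulocytes. Sqle and Cyp51, which act at the squalene and lanosterol steps, separated T cells and dendritic cells from the macrophages, NK cells and granulocytes. The tests were limma contrasts between populations of vehicle arrays with Benjamini-Hochberg adjustment over 12552 genes, and a difference is called at an adjusted p below 0.05. Of 105 member differences over 15 pairs of populations, 70 were called. The peritoneal vehicle arrays came from experiments J12, J23 and J25, and 6 of the 9 were early. The vehicle arrays of the other populations were nearly all prolonged and, apart from some of T cells, came from other experiments. In comparisons with peritoneal macrophages, cell type, experiment and schedule therefore cannot be told apart.

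**Figure D1:**
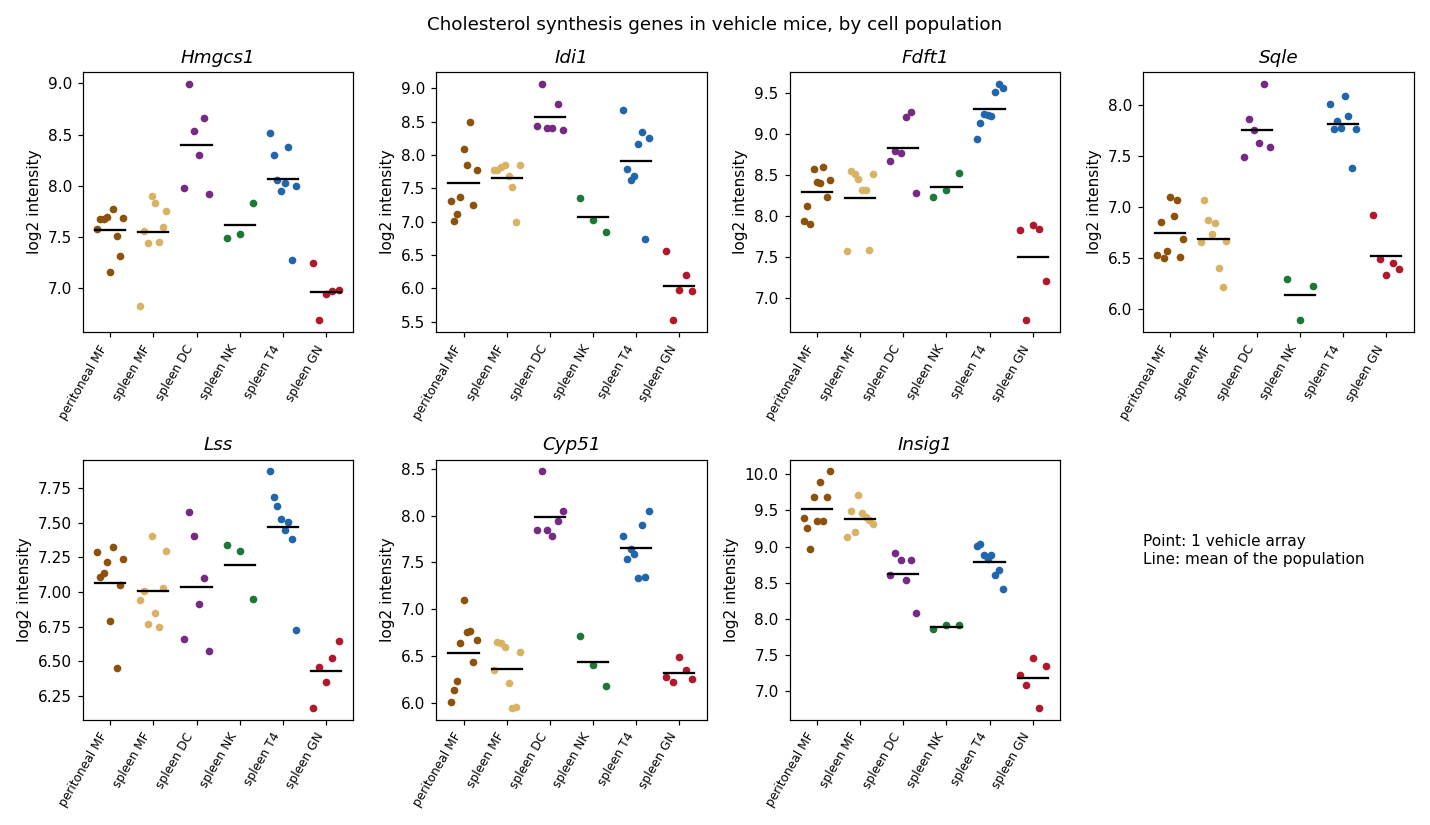
Log2 intensity (vertical axis) of the 7 genes in plain vehicle arrays of the 6 populations (horizontal axis). Each point is 1 array and each line a mean. Granulocytes are lowest for 6 genes, NK cells for Sqle, and the macrophages are highest for Insig1.

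Hmgcs1 encodes the synthase that forms HMG-CoA, the entry to the pathway. In 6 dendritic cell vehicle arrays it ran from 7.92 to 8.996 with a median of 8.41, and in 8 T cell arrays from 7.28 to 8.51 with a median of 8.04. The 3 NK cell arrays were at 7.49, 7.54 and 7.83, and the 5 granulocyte arrays at 6.69, 6.95, 6.97, 6.98 and 7.25. Dendritic cells did not overlap with NK cells or granulocytes, while T cells overlapped with both dendritic cells and NK cells. The means were 8.40 ± 0.41 (SD, n = 6) in dendritic cells, 8.06 ± 0.38 (SD, n = 8) in T cells, 7.62 ± 0.18 (SD, n = 3) in NK cells, 7.56 ± 0.20 (SD, n = 9) in peritoneal macrophages, 7.55 ± 0.33 (SD, n = 8) in spleen macrophages and 6.97 ± 0.20 (SD, n = 5) in granulocytes. Of neighbours in that order, only spleen macrophages and granulocytes differed (0.58, limma adjusted p = 0.00275). Dendritic cells exceeded granulocytes by 1.43 (95% interval 1.06 to 1.80, limma adjusted p = 7.61e-09).

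Idi1, the isomerase that balances the isoprenoid building blocks, spanned the widest range. Dendritic cell arrays ran from 8.38 to 9.07 (median 8.42) and granulocyte arrays were at 5.52, 5.96, 5.97, 6.20 and 6.555. T cells were widely spread, from 6.73 to 8.7 with a median of 7.97, and they and peritoneal macrophages (up to 8.49) overlapped with both dendritic cells and NK cells. The order of the means was 8.58 ± 0.28 in dendritic cells, 7.91 ± 0.60 in T cells, 7.66 ± 0.29 in spleen macrophages, 7.58 ± 0.50 in peritoneal macrophages, 7.07 ± 0.26 in NK cells and 6.04 ± 0.38 in granulocytes (SD, with the same array numbers as for Hmgcs1). Dendritic cells stood above T cells by 0.67 (95% interval 0.22 to 1.11, limma adjusted p = 0.011) and NK cells above granulocytes by 1.03 (adjusted p = 0.00294). T cells, both macrophage populations and NK cells formed a series in which no neighbours differed. The difference between dendritic cells and granulocytes was 2.54 (95% interval 2.04 to 3.04, limma adjusted p = 1.01e-11). A second Idi1 probe set gave nearly the same profile, with a Pearson correlation of 0.991 over all arrays, and the Fdft1 pair correlated at 0.9385.

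Fdft1, the squalene synthase that commits isoprenoids to sterols, was highest in T cells, whose 8 arrays ran from 8.94 to 9.61 (median 9.24). Granulocytes, at 6.73, 7.21, 7.83, 7.84 and 7.90, did not overlap with T cells. The means were 9.31 ± 0.23 in T cells, 8.83 ± 0.36 in dendritic cells, 8.36 ± 0.15 in NK cells, 8.29 ± 0.26 in peritoneal macrophages, 8.23 ± 0.41 in spleen macrophages and 7.501 ± 0.51 in granulocytes. Dendritic cells minus T cells gave -0.48 (limma adjusted p = 0.0242), and T cells exceeded granulocytes by 1.81 (95% interval 1.43 to 2.185, adjusted p = 3.57e-11). Among dendritic cells, NK cells and macrophages no neighbours differed by the test. Across that series, macrophages minus dendritic cells gave -0.54 for peritoneal (adjusted p = 0.0081) and -0.61 for spleen macrophages (adjusted p = 0.00401).

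Sqle, the squalene epoxidase, split the populations into a high and a low group. T cell arrays ran from 7.38 to 8.09 and dendritic cell arrays from 7.49 to 8.21, while the highest array of any other population was a peritoneal macrophage array at 7.10. The means were 7.82 ± 0.21 in T cells and 7.75 ± 0.26 in dendritic cells, with a difference of -0.06 for dendritic cells minus T cells (95% interval -0.33 to 0.20). They were 6.74 ± 0.24 in peritoneal macrophages, 6.68 ± 0.27 in spleen macrophages, 6.52 ± 0.23 in granulocytes and 6.13 ± 0.22 in NK cells. NK cells minus T cells gave -1.68, a 3.21-fold difference (limma adjusted p = 5.18e-11). Sqle was dim on all 3 NK cell and all 5 granulocyte arrays.

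Cyp51, which removes a methyl group from lanosterol, showed the same split. Dendritic cell arrays ran from 7.78 to 8.47 (mean 7.99 ± 0.25) and T cell arrays from 7.34 to 8.05 (mean 7.65 ± 0.25), and the other 4 populations had medians of 6.64 (peritoneal macrophages, SD 0.35), 6.41 (NK cells, SD 0.26), 6.45 (spleen macrophages, SD 0.29) and 6.28 (granulocytes, SD 0.11). No difference among those 4 populations was called, and Cyp51 was dim on all spleen macrophage, NK cell and granulocyte vehicle arrays. Peritoneal macrophages minus dendritic cells gave -1.46, a 2.75-fold difference (limma adjusted p = 1.72e-11). The difference between dendritic cells and T cells was 0.34 (95% interval 0.04 to 0.64) and was not called at an adjusted p of 0.0544.

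Lss, the synthase that folds squalene epoxide into lanosterol, had the narrowest range of population means among the 7 genes. Its means lay between 7.01 ± 0.24 in spleen macrophages and 7.47 ± 0.34 in T cells for 5 populations, with dendritic cells at 7.04 ± 0.40, peritoneal macrophages at 7.07 ± 0.28 and NK cells at 7.19 ± 0.21, and granulocytes lay lower at 6.43 ± 0.18. All granulocyte arrays were at or below 6.65, below the lowest array of the NK cells (6.95) but not of the dendritic cells (6.573). The difference of dendritic cells minus T cells was -0.43 (limma adjusted p = 0.0193), and granulocytes lay below each of the other 5 populations (adjusted p of 0.00224 or less). Lss was dim on all 5 granulocyte arrays.

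Insig1 encodes the protein that retains the SREBP escort in the endoplasmic reticulum and is itself an SREBP target. It had another profile. Peritoneal macrophage arrays ran from 8.97 to 10.04 (median 9.39) and spleen macrophage arrays from 9.13 to 9.71 (median 9.39), all but 1 of these above the highest T cell array at 9.03. The means were 9.52 ± 0.34 in peritoneal macrophages, 9.39 ± 0.18 in spleen macrophages, 8.79 ± 0.21 in T cells, 8.627 ± 0.30 in dendritic cells, 7.90 ± 0.03 in NK cells and 7.18 ± 0.27 in granulocytes. Peritoneal macrophages exceeded dendritic cells by 0.89 (limma adjusted p = 3.88e-07) and T cells by 0.72 (adjusted p = 3.14e-06), while the same differences for Sqle were -1.01 and -1.07 (adjusted p = 7.92e-09 and 1.87e-10).

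These counts have to be read against the share of all genes that differed between populations. A gene was tested here if it exceeded the array's median on at least 3 vehicle arrays of all populations together. Idi1, Sqle, Lss and Cyp51 were dim on all 5 granulocyte arrays. They entered each comparison with granulocytes only through their levels in other populations. Between dendritic cells and granulocytes 7 of 7 members were called, all higher in dendritic cells, where 69.2% of all tested genes were called. The median difference of the members was 1.43, against 0.03 over all genes. T cells exceeded granulocytes in 7 of 7 members (73.5% of genes called), with a median of 1.33 against 0.10. Peritoneal macrophages against granulocytes gave 5 of 7 (76.4%), spleen macrophages 5 of 7 (76.9%) and NK cells 5 of 7 (63%), all higher than in granulocytes. Peritoneal macrophages against dendritic cells gave 6 of 7 with only Insig1 higher (51%), and against T cells also 6 of 7 with only Insig1 higher (57.7%). For spleen macrophages the shares were 49.1% of genes against dendritic cells and 57% against T cells, with the same 6 of 7 and 1 higher in each. Dendritic cells exceeded NK cells in 5 of 7 members (34.3%), and T cells exceeded NK cells in 5 of 7 (21.5%). Macrophages exceeded NK cells only in Sqle and Insig1, 2 of 7 in each population (47.7% for peritoneal, 45.4% for spleen). Dendritic cells and T cells differed in 3 of 7 (47.4%), a share near the background. The macrophage populations differed in 0 of 7 (0.406%), with the largest difference in Cyp51 at 0.17 (95% interval -0.10 to 0.43).

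Other genes of the pathway were set beside them. Of 12 further cholesterol synthesis genes on the array, 9 were higher and 1 lower in T cells than in granulocytes, with a median difference of 0.65. In dendritic cells against granulocytes 6 were higher and 2 lower, with a median of 0.32. Against T cells, dendritic cells had 0 higher and 6 lower of the 12 (median -0.28). The 7 members had 1 higher (Idi1) and 2 lower (Lss and Fdft1) there. For the 12 genes, the counts called in both comparisons with dendritic cells lay near the shares of all genes given above. That of T cells against granulocytes lay somewhat above its share.

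No member passed the test in any comparison of inhibitor with vehicle, of schedules, of the vehicles or of compounds. Over 87 comparisons and 508 member tests, 0 were called, 32 (6.3%) had an unadjusted p below 0.05 and the lowest adjusted p was 0.208. That count of 0 came from limma, with the experiment as a term and adjustment over all genes tested in the population. The background was equally low: most comparisons called 0% of all genes. Not every member could be tested, because a gene had to exceed the median of at least 3 arrays in its population. All 7 were tested in dendritic cells and T cells, 6 in each macrophage population (without Cyp51), 5 in NK cells (without Sqle and Cyp51) and 3 in granulocytes (Hmgcs1, Insig1 and Fdft1).

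**Figure D2:**
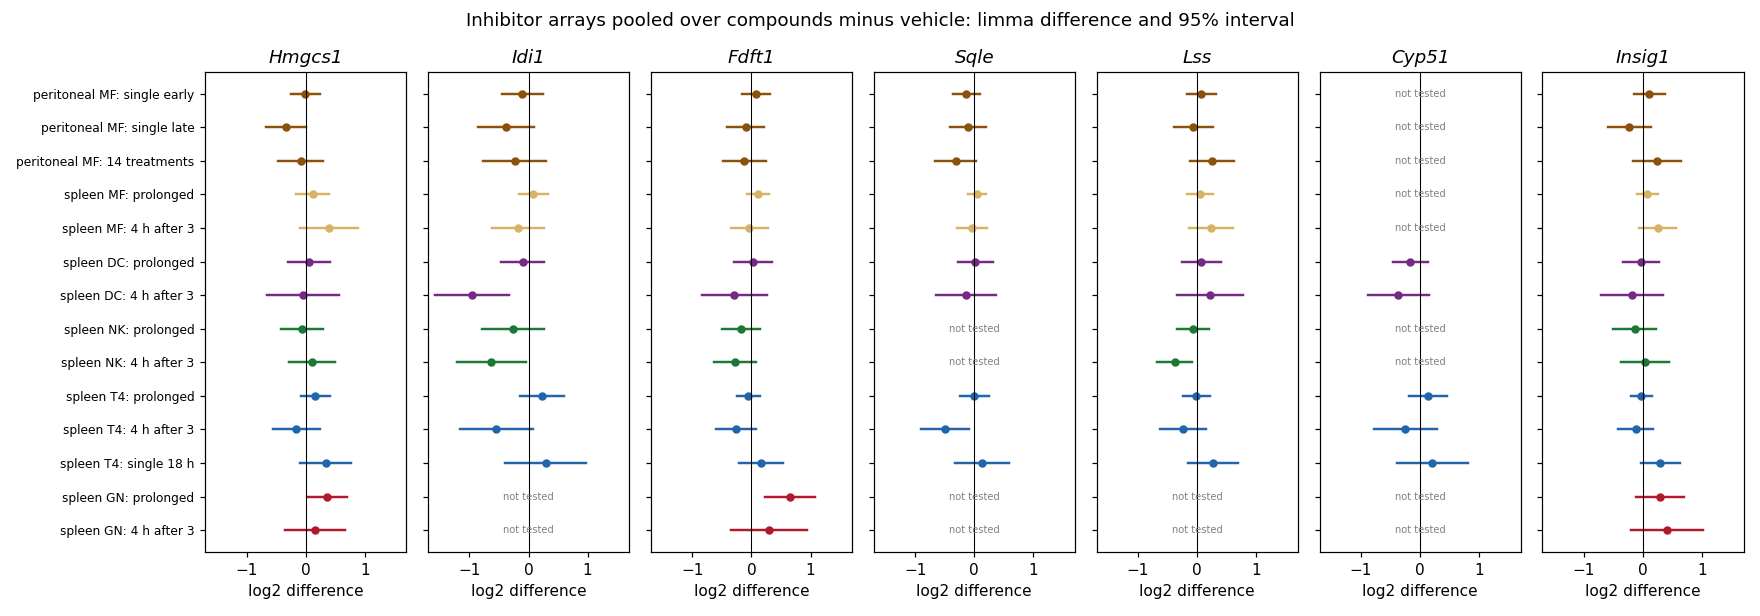
Limma log2 difference (horizontal axis) of inhibitor arrays pooled over compounds minus vehicle, with its 95% interval, for each gene (panel) and comparison (row, coloured by population). Most intervals cross 0; the 6 that do not are at 4 h (Idi1 in dendritic cells and NK cells, Lss in NK cells, Sqle in T cells) and in granulocytes after prolonged treatment (Hmgcs1 and Fdft1), and none was called after adjustment over all genes.

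After prolonged treatment the differences in dendritic cells were small beside the spread of the arrays. Idi1 ran from 7.95 to 9.65 (median 8.50) in 12 inhibitor arrays and from 8.38 to 9.07 (median 8.42) in 6 vehicle arrays. The groups overlapped, and the difference was -0.10 (95% interval -0.46 to 0.26). Hmgcs1 differed by 0.05 (-0.30 to 0.41), Sqle by 0.02 (-0.28 to 0.32) and Cyp51 by -0.17 (-0.47 to 0.13), and the intervals of Insig1, Lss and Fdft1 lay within -0.47 and 0.41. SB00526221 alone called 0.00925% of genes there and 0 members.

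In spleen macrophages after prolonged treatment Hmgcs1 ran from 6.74 to 8.14 (median 7.65) in 18 inhibitor arrays and from 6.83 to 7.90 (median 7.58) in 8 vehicle arrays, a difference of 0.12 (95% interval -0.17 to 0.40). All 6 tested members had differences between 0.05 and 0.12, and every interval lay within -0.17 and 0.40. The shares of genes called were 0.00908% for the pooled inhibitors and for SB00526222, and 0.164% for SB00526221, with 0 members in each.

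In T cells, Hmgcs1 after prolonged treatment ran from 7.54 to 8.678 (median 8.29) in 19 arrays against 7.28 to 8.51 (median 8.06) in 7 prolonged vehicle arrays, a difference of 0.17 (95% interval -0.07 to 0.41). Idi1 differed by 0.23 (-0.14 to 0.61), Cyp51 by 0.13 (-0.19 to 0.46), and the other 4 members by -0.05 to -0.00. The mean of the 7 differences was 0.063, and 0.094 without the array of SB00526228 that carried granulocyte and dendritic cell markers. The fitted differences of that array from vehicle were below 0 in 7 of 7 members. It also lay below the only vehicle array of its experiment, J2, in 7 of 7. By plain values it was above the mean of the 7 prolonged vehicle arrays in Hmgcs1, Idi1 and Cyp51. Sqle was at 7.23, below the lowest vehicle array at 7.38, with a fitted difference of -0.91. Insig1 differed by -0.61 and Fdft1 by -0.54 in the fit. In this contrast 1.68% of all genes were called and 0 members. The median difference was -0.46 over the members, against -0.05 over all genes. The part of the other cells' RNA in these values was not tested.

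In NK cells, the fitted differences of all 5 tested members were below 0 after prolonged treatment. Their median was -0.14 against -0.01 over all genes, and every interval included 0. Only 9 of the 19 inhibitor arrays had a vehicle array in their experiment (J2 or J6). Of these 9, arrays below the vehicle mean of their experiment numbered 7 for Idi1, 7 for Fdft1, 6 for Insig1, 5 for Hmgcs1 and 4 for Lss. Idi1 ran from 6.22 to 7.76 (median 6.91) in 19 inhibitor arrays and was at 6.84, 7.03 and 7.35 in the 3 vehicle arrays, a difference of -0.26 (95% interval -0.79 to 0.26). SB00526228 called 0.0456% of genes there and 0 members.

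Granulocytes gave the largest positive values after prolonged treatment. Fdft1 was at 7.60, 7.82, 7.86, 7.94, 7.999 and 8.25 in 6 inhibitor arrays and at 6.73, 7.21, 7.83, 7.84 and 7.90 in 5 vehicle arrays, so the groups overlapped. The difference was 0.66 (SE 0.20, 95% interval 0.24 to 1.08, limma adjusted p = 0.368), and that of Hmgcs1 0.37 (0.03 to 0.70, adjusted p = 0.564). Vehicle replicate 2, the only vehicle array of experiment J3, had the lowest Fdft1 (6.73) and Hmgcs1 (6.69) values, and without it the differences were 0.11 and 0.09. For SB00526222 alone, given to 3 J3 mice, the Fdft1 difference was 1.14 (limma adjusted p = 0.256), and that array was their only vehicle array of the same experiment. The shares of genes called were 0.0273% for the pooled inhibitors, 0.146% for SB00526221 and 0.0455% for SB00526222, with 0 members.

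Peritoneal macrophages were taken from 1.5 to 28 h after a single treatment. Within 6 h, Hmgcs1 ran from 7.03 to 8.02 (median 7.64) in 12 inhibitor arrays and from 7.16 to 7.68 (median 7.63) in 6 vehicle arrays, with a difference of -0.01 (95% interval -0.25 to 0.24). The 6 tested members lay between -0.14 (Sqle) and 0.11 (Insig1), and every interval was within -0.45 and 0.37. Here 0.092% of genes were called for the pooled inhibitors and 0.0184% for SB00513404, with 0 members.

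At 18 to 28 h all 6 members were lower on average, with a median of -0.17 against -0.06 over all genes. Hmgcs1 was at 7.51, 7.70 and 7.78 in the vehicle arrays and ran from 6.99 to 7.76 (median 7.33) in 8 inhibitor arrays, so the groups overlapped, and the difference was -0.33 (95% interval -0.66 to 0.00, limma adjusted p = 0.92). The 4 J25 inhibitor arrays, at 6.99, 7.08, 7.14 and 7.15, were the lowest, while the 4 J23 arrays were at 7.51 to 7.76. Their vehicle arrays differed in schedule, since the J25 ones had received 14 treatments and the J23 one a single treatment, so schedule and experiment cannot be told apart there. Within J23 the mean difference over the members was 0.013, against -0.20 pooled. Idi1 (-0.38) and Insig1 (-0.23) had intervals that included 0. After 14 treatments, Sqle (-0.31, 95% interval -0.67 to 0.04) and Idi1 (-0.23, -0.77 to 0.30) were lower than vehicle on average. Lss (0.25, -0.12 to 0.63) was higher. Each held in 4 of 4 inhibitor arrays relative to the J25 vehicle mean, and none was called. For Lss that mean rested on vehicle arrays at 7.32 and 6.45, and the inhibitor arrays were at 6.98 to 7.34.

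At 4 h the fitted Idi1 difference from prolonged vehicle was below 0 in dendritic cells, NK cells and T cells, and none of these was called. In dendritic cells Idi1 was at 8.11 and 7.58 in the 2 arrays at 4 h, below all 6 vehicle arrays (8.38 to 9.07). The difference was -0.95, a 1.94-fold lower level (SE 0.29, 95% interval -1.57 to -0.34, unadjusted p = 0.00449, limma adjusted p = 0.808). Of 10815 genes tested there, 0 were called, and the share of all genes without overlap was not counted. The prolonged J2 arrays of the same compounds were about as low, at 8.05 for SB00526222 and 7.98 for SB00526226, and 4 h minus prolonged gave -0.40 (95% interval -1.06 to 0.26). Cyp51 differed by -0.37 (95% interval -0.89 to 0.14) and Fdft1 by -0.29 (-0.83 to 0.26), while Lss went the other way at 0.22 (-0.34 to 0.78). The SB00526226 array at 4 h had the highest red pulp macrophage marker level of all dendritic cell arrays, 8.51 against a median of 7.60, and its Idi1 was the lower of the pair. Whether the one bears on the other was not tested.

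In NK cells at 4 h, Idi1 was at 5.87, 6.03, 6.40, 6.70 and 6.98 against 6.84, 7.03 and 7.35 in vehicle. The groups overlapped by 1 array, and the difference was -0.63 (SE 0.28, 95% interval -1.21 to -0.04, limma adjusted p = 0.413). Lss, at 6.69, 6.77, 6.98, 7.04 and 7.25 against 6.95, 7.29 and 7.34, differed by -0.38 (95% interval -0.68 to -0.08, limma adjusted p = 0.324). For SB00526226 alone Lss differed by -0.60 (limma adjusted p = 0.208), the lowest adjusted p of all member tests. Fdft1 ran from 7.94 to 8.18 at 4 h and from 8.23 to 8.53 in vehicle, without overlap. The share of all genes without overlap was not counted. Its difference of -0.28 (95% interval -0.64 to 0.08) was not called, where 0.119% of all genes were. Prolonged inhibitor arrays of J2 had Fdft1 at 7.88 to 8.38, and 4 h minus prolonged gave -0.11 (95% interval -0.42 to 0.20). Hmgcs1 (0.11) and Insig1 (0.03) had differences above 0, so the 5 tested members did not share a direction. The dendritic cell marker level was 7.83 to 9.06 in the 4 h arrays and 7.198 to 9.17 in vehicle, and its part in these values was not tested. For single compounds the shares of genes called were 0.0639% for SB00526221 and for SB00526226, and 0.00913% for SB00526222, with 0 members.

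In T cells at 4 h the fitted differences from vehicle were below 0 in 7 of 7 members, with a median of -0.25 against 0.01 over all genes. Sqle was at 7.55, 7.57, 7.59, 7.66 and 7.86, against a range of 7.38 to 8.09 (median 7.85) in prolonged vehicle and 8.004 in the only vehicle array of experiment J2. The groups overlapped, and the difference was -0.49 (SE 0.20, 95% interval -0.90 to -0.08, limma adjusted p = 1). Idi1 differed by -0.54 (-1.17 to 0.08) in the fit, while its plain mean was 7.94 both at 4 h and in the 7 prolonged vehicle arrays, and Hmgcs1 by -0.16 (-0.55 to 0.24). The fitted differences depended on comparing arrays within experiments: with no experiment term the mean difference over the members was -0.02 in place of -0.29. Of all genes 0.00892% were called for the pooled inhibitors and 0.143% for SB00526221, with 0 members.

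At 4 h the members of spleen macrophages and granulocytes had differences on both sides of 0 or above it. In spleen macrophages Idi1 was at 7.07, 7.17, 7.38 and 7.62 against 7.0 to 7.85 (median 7.78) in vehicle, a difference of -0.18 (95% interval -0.61 to 0.26), and Hmgcs1 differed by 0.40 (-0.09 to 0.89). The single J2 vehicle array had the lowest Hmgcs1 value of that population's vehicle arrays, 6.83, and the mean over members was 0.10 with and -0.15 without an experiment term. In granulocytes Fdft1 was at 7.37, 7.72, 8.31 and 9.11, against 6.73 to 7.90 in vehicle, and differed by 0.30 (-0.35 to 0.94). Genes called at 4 h were 0.0182% for the pooled inhibitors and 0.0273% for SB00526221 in spleen macrophages, and 0.0455% for the pooled inhibitors, 0.0911% for SB00526221 and 0.0455% for SB00526222 in granulocytes, with 0 members.

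**Figure D3:**
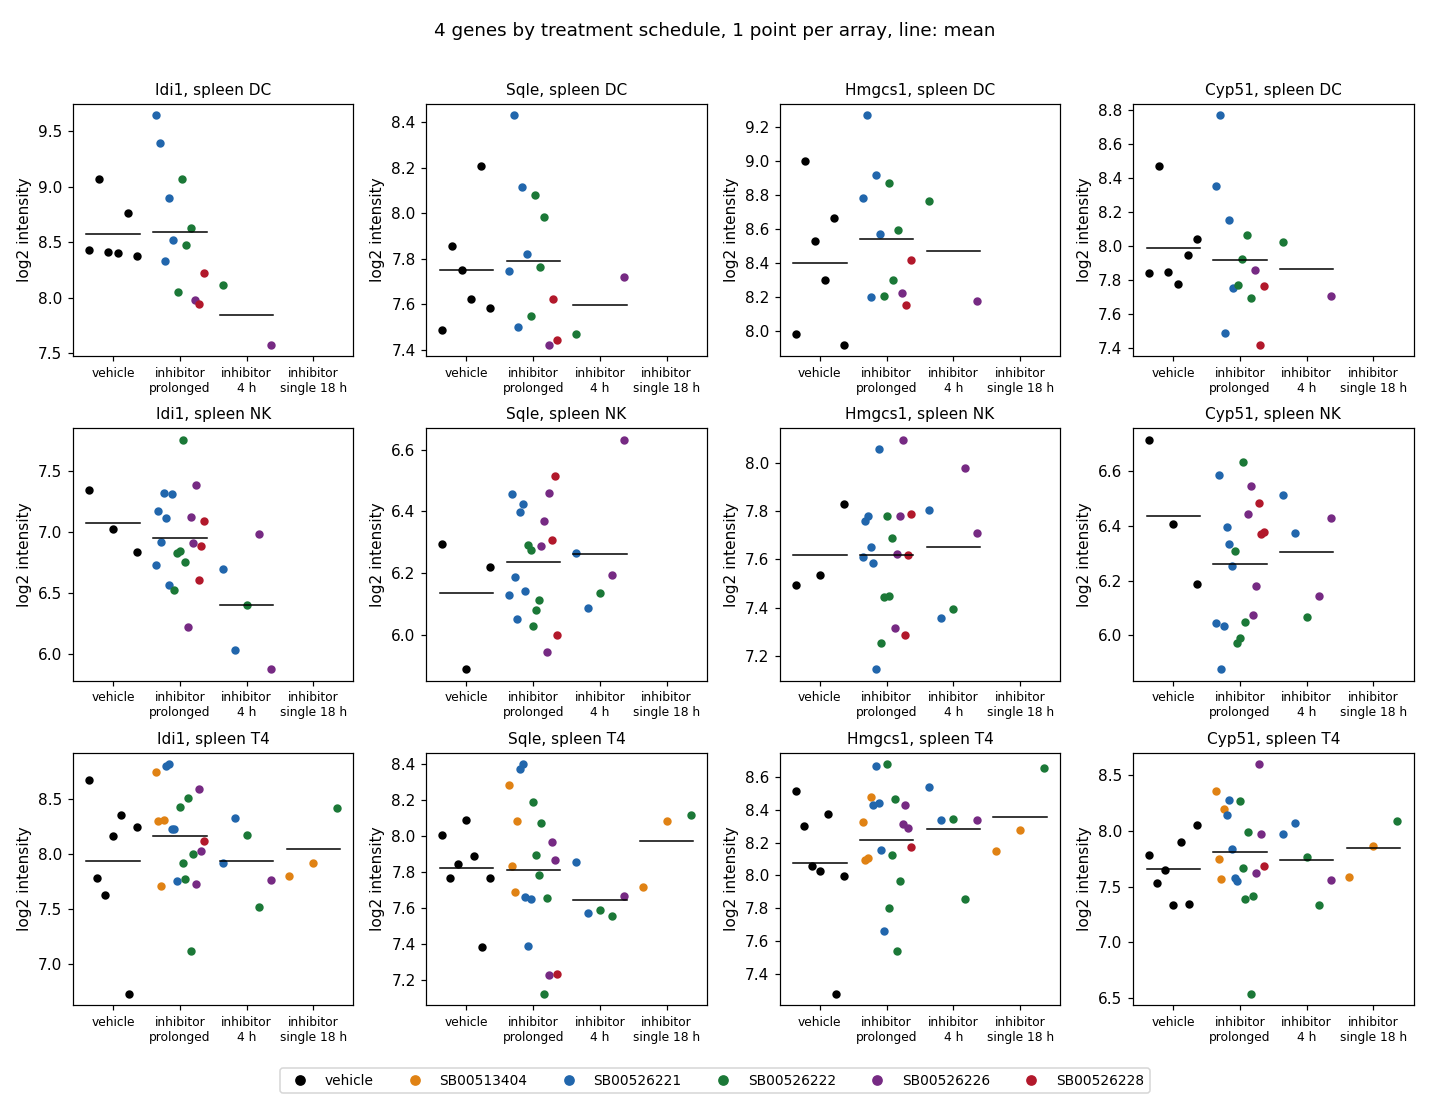
Log2 intensity (vertical axis) of Idi1, Sqle, Hmgcs1 and Cyp51 in dendritic cells, NK cells and T cells, by schedule (horizontal axis). Each point is 1 array coloured by compound, and each line a mean. The 2 dendritic cell arrays at 4 h have Idi1 at 8.11 and 7.58, below all 6 vehicle arrays, while Hmgcs1 at 4 h lies within the vehicle range in dendritic cells.

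Comparing 4 h with prolonged arrays of the same inhibitors removes the compound from the comparison but not the number of treatments. In T cells the fitted differences of all 7 members were below 0, with a median of -0.33 against 0.01 over all genes. This depended on the experiment term: without it the mean over the members was -0.06 in place of -0.35, and Fdft1 was called (-0.48, limma adjusted p = 0.0407, with 5.34% of genes called). By plain means over all prolonged inhibitor arrays, Hmgcs1 (8.28 at 4 h, 8.22 prolonged), Insig1 (8.85 and 8.77) and Lss (7.59 and 7.42) were not lower at 4 h. Sqle differed by -0.52 (SE 0.18, 95% interval -0.88 to -0.16, limma adjusted p = 0.94) and Idi1 by -0.74 (SE 0.27, -1.29 to -0.20, adjusted p = 1), and 0.0357% of genes and 0 members were called. The T cell arrays of SB00526221 taken at 14 h in the same experiment had Idi1 at 8.80 and 8.81 and Sqle at 8.37 and 8.40, while at 4 h they had Idi1 at 7.92 and 8.32 and Sqle at 7.86 and 7.57. In NK cells 1.47% of genes were called between 4 h and prolonged treatment, and 0 members. Lss differed there by -0.31 (95% interval -0.56 to -0.05, limma adjusted p = 0.286). In spleen macrophages 0.0818% of genes and 0 members were called.

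A single treatment 18 h earlier, given to 3 animals of J25 with T cell arrays, was set against prolonged vehicle, so that the inhibitor and the number of treatments cannot be told apart. The fitted differences of all 7 members were above 0, with a median of 0.27 against 0.04 over all genes. Insig1 was at 9.09, 9.12 and 9.34, above all 7 prolonged vehicle arrays (8.42 to 9.03). It differed by 0.29 (95% interval -0.04 to 0.62, limma adjusted p = 0.999), where 0% of genes were called. The share of all genes above every vehicle array was not counted. The 3 h array of SB00513404 in T cells was set against 1 vehicle array: Idi1 was at 6.90 and 7.69, Sqle at 7.25 and 7.77, and Cyp51 at 7.03 and 7.60. Hmgcs1 (7.84 and 7.95) and Fdft1 (9.03 and 9.23) were also lower, while Insig1 (8.86 and 8.83) and Lss (7.64 and 7.53) were higher. With 1 array on each side this has no replicate check of its own.

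Among the compounds, 19 pairs with at least 2 arrays each at the prolonged schedule were compared, and 0 of 114 member tests were called over all genes. The largest difference was in dendritic cells between SB00526228 and SB00526221. Idi1 was at 7.95 and 8.23 with SB00526228 and at 8.34, 8.52, 8.90, 9.39 and 9.65 with SB00526221. The groups did not overlap, and the share of all genes without overlap was not counted. The Idi1 difference was -1.15 (SE 0.30, 95% interval -1.79 to -0.52). Its limma adjusted p was 0.999 over all genes and 0.022 over the pairs in which Idi1 was tested. Within experiment J2, which gave both SB00526228 arrays, SB00526221 was at 9.39 and 9.65 and vehicle at 8.43 and 9.07. The SB00526221 arrays of experiment J6, at 8.34, 8.52 and 8.90, were closer to vehicle. Cyp51 differed by -0.78 (-1.30 to -0.25, limma adjusted p of 0.0554 over the pairs) and Hmgcs1 by -0.64 (-1.25 to -0.02) in the same pair.

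Against vehicle these compounds lay on either side in dendritic cells. SB00526221 was above vehicle in 7 of 7 members, with a median of 0.20 against 0.06 over all genes. Its Idi1 difference was 0.44 (95% interval 0.01 to 0.87, limma adjusted p = 0.698). The fitted differences of SB00526228, with 2 arrays, were below 0 in 7 of 7, with a median of -0.23 against 0.03. They were -0.71 for Idi1 (-1.33 to -0.10) and -0.64 for Cyp51 (-1.16 to -0.13, limma adjusted p = 0.999 each). Both SB00526228 arrays came from J2, with means over the members of 7.906 and 8.015. The J2 vehicle arrays were far apart, at 7.956 and 8.524. The plain mean of Lss was 7.08 with SB00526228, above 7.04 in all vehicle arrays. The members varied together in dendritic cells, so the members in these counts are not independent. Both comparisons share the vehicle arrays. SB00526222 against SB00526221 gave -0.73 for Idi1 (-1.37 to -0.09), and SB00526228 against SB00526222 gave -0.42 (-1.15 to 0.31), an interval that does not show that these compounds act alike.

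In NK cells SB00526228 minus SB00526221 gave 0.05 for Idi1 (95% interval -0.54 to 0.65). The difference between the populations was not tested. In NK cells SB00526228 called 0.0183% of genes against SB00526221 and 0.0183% against SB00526222, with 0 members in each. In T cells SB00526226 had Hmgcs1 above SB00526222 by 0.41 (0.02 to 0.80) and Cyp51 above it by 0.58 (0.05 to 1.11), with limma adjusted p of 0.627 and 0.623. In spleen macrophages SB00526222 and SB00526221 differed in Hmgcs1 by 0.10 (-0.33 to 0.53), in Sqle by -0.14 (-0.36 to 0.08) and in Idi1 by -0.20 (-0.58 to 0.18).

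The vehicles were compared as a background. The pH 3 vehicle did not differ from plain vehicle in any member by the test. In T cells all 7 members were still above plain vehicle on average, with a median of 0.17 against 0.04 over all genes. Within experiment J2, however, the pH 3 array was above the plain vehicle array only in Hmgcs1 and Sqle. In J8 both pH 3 arrays were taken at 14 h, while plain vehicle replicate 6, with Hmgcs1 at 7.28, was taken at 17 h. Vehicle and hour can therefore not be fully told apart there. Hmgcs1 was at 8.27, 8.36 and 8.52 with the pH 3 vehicle and differed by 0.34 (95% interval -0.05 to 0.74). Against the pH 3 vehicle, SB00526226 differed in T cells by 0.16 in Hmgcs1 (-0.28 to 0.60) and in spleen macrophages by 0.31 in Insig1 (-0.01 to 0.62), and no member was called.

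Hours since the last treatment were compared in T cells of experiment J8, where each animal had 14 treatments and was taken 14 or 17 h after the last. This comparison was added after the values had been seen. Idi1 was at 7.75, 7.93, 8.25, 8.46, 8.51 and 8.59 in the 6 arrays at 14 h and at 6.73, 7.12, 7.72, 8.002, 8.03 and 8.23 in the 6 at 17 h. The groups overlapped, and with compound as a term the difference of 17 h minus 14 h was -0.70 (SE 0.27, 95% interval -1.29 to -0.11, limma adjusted p = 0.458). Cyp51 ran from 7.55 to 8.60 at 14 h and from 6.539 to 7.98 at 17 h, a difference of -0.66 (-1.12 to -0.21), and Sqle differed by -0.45 (-0.83 to -0.08), both with an adjusted p of 0.458.

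Of the 7 members 7 were lower at 17 h, as were 56.5% of all genes, and their median was -0.29 against -0.04. In 5 of 7 members all 6 arrays at 17 h lay below the 14 h mean, which held for 6.7% of all genes. The comparison was chosen after these values were seen, and the members varied together in T cells. These counts are therefore description only. None of the 11212 genes tested was called by limma, and 3 of the 7 members had an unadjusted p below 0.05. Lss had a fitted difference near 0 (-0.00, 95% interval -0.50 to 0.49). Of 12 other cholesterol synthesis genes, 9 were lower at 17 h, with a median of -0.13. In spleen macrophages and NK cells of J8 the medians of the members were 0.02 and -0.15, with 0 genes called in either. All 17 h arrays lay below the 14 h mean in 2 of 6 and 1 of 5 members there. This held for 7.43% and 8.51% of all genes. Plain vehicle, SB00526221, SB00526222 and SB00526226 had arrays at both hours, and both pH 3 vehicle arrays were at 14 h.

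**Figure D4:**
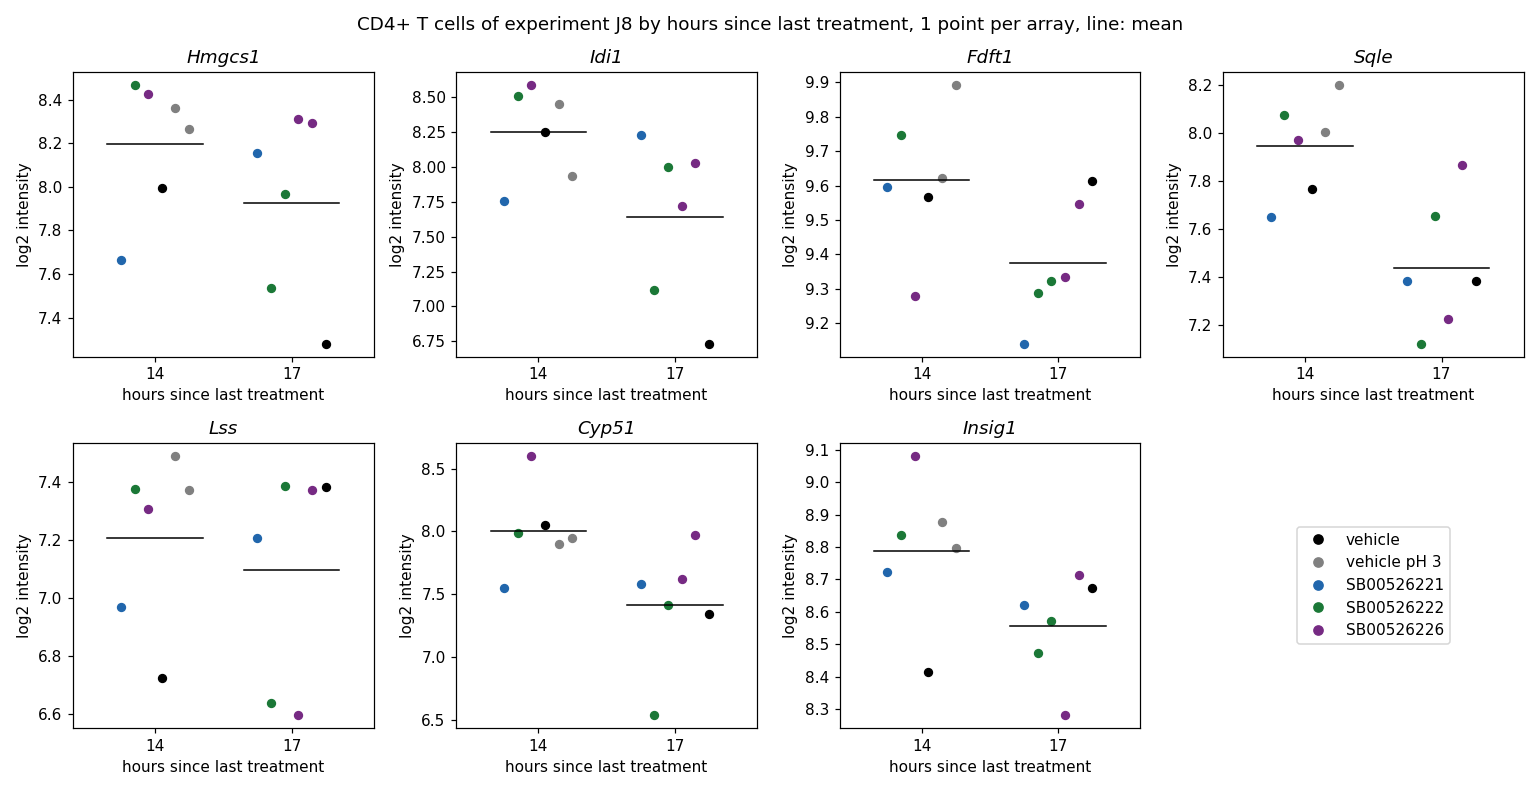
Log2 intensity (vertical axis) of the 7 genes in CD4+ T cells of experiment J8, at 14 and 17 h since the last treatment (horizontal axis). Each point is 1 array coloured by compound, and each line a mean of 6 arrays. The mean of each gene is lower at 17 h, by plain differences from -0.11 for Lss to -0.61 for Idi1.

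Most members varied together from array to array. For each gene the mean of its group was taken away, and the remaining deviations were correlated over all arrays of the series, of which 16 were alone in their group and had a deviation of 0. Sqle and Cyp51 had a Pearson correlation of 0.62, Idi1 and Cyp51 0.62, Hmgcs1 and Idi1 0.59, Hmgcs1 and Insig1 0.58, and Hmgcs1 and Lss 0.56. Lss and Fdft1 had none (-0.03). The arrays share animals, experiments and the authors' joint normalization, so these are descriptions.

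By population, without the lone arrays, the median over gene pairs was 0.69 in dendritic cells (17 arrays, range 0.31 to 0.85), 0.57 in T cells (34 arrays, -0.32 to 0.81), 0.54 in spleen macrophages (30 arrays, 0.22 to 0.81), 0.28 in granulocytes (12 arrays), 0.26 in peritoneal macrophages (33 arrays) and 0.05 in NK cells (26 arrays). Hmgcs1 and Idi1 correlated at 0.81 in T cells and 0.78 in dendritic cells, but at 0.12 in peritoneal macrophages, where Idi1 and Cyp51 reached 0.76.

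**Figure D5:**
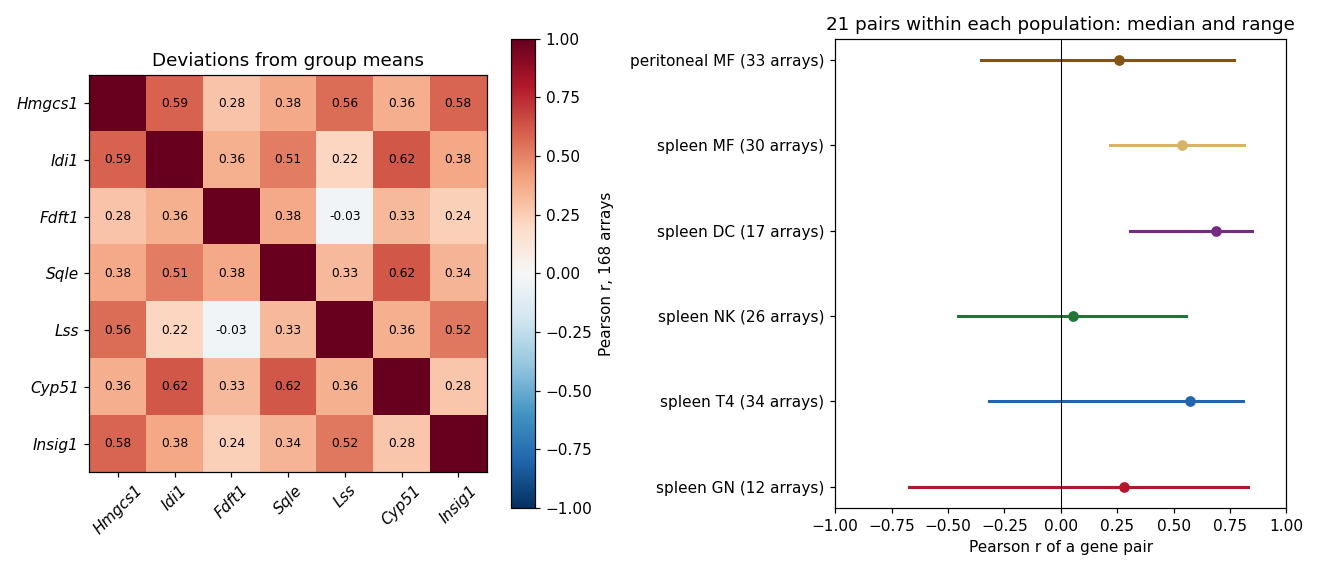
Left, Pearson correlation of deviations from group means for each pair of the 7 genes over all arrays. Right, median (point) and range (line) of the pair correlations within each population. The median is highest in dendritic cells (0.69) and lowest in NK cells (0.05).

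Other genes of the pathway shared this variation to an unequal degree. Among 19745 genes outside the members, Msmo1, which removes methyl groups from sterols after Cyp51, had the highest correlation with the mean of the members over all arrays (0.71), and Hsd17b7, a sterol ketoreductase, ranked 8 (0.65). The 8 other genes in the first 10 were Oxct1, Memo1, Nup155, Tsr1, Ftsj3, Gmcl1, Haus6 and Utp6, at 0.64 to 0.69. The median over all genes was -0.11, and 2.54% lay above 0.5. Dhcr7 (0.49, rank 592), Sc5d (0.48, rank 688) and Fdps (0.44, rank 1150) came next among the 12 other synthesis genes, and Tm7sf2 was at -0.18. The mean of the members also followed the first principal component of all genes (absolute correlation 0.53, 19.5% of the variance), which is a pattern shared by many genes. With 7 proliferation genes it correlated at 0.28 over all arrays, at 0.68 in dendritic cells and at -0.07 in T cells.

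Other lists of lipid genes were counted in the same comparisons. Over 63 comparisons, 0 genes were called among the 12 other cholesterol synthesis genes, 6 genes of SREBP control, 6 of cholesterol uptake and transport, 7 LXR targets and efflux genes and 11 of fatty acid synthesis. In the synthesis list, Hsd17b7 had the largest limma statistic in NK cells at 4 h against prolonged (-0.45, adjusted p = 0.0996) and against vehicle (-0.40, adjusted p = 0.334). It also led in granulocytes at 4 h (0.71, limma adjusted p = 0.793) and in late peritoneal macrophages (-0.36, limma adjusted p = 0.92). In T cells at 4 h the lead was Fdps, the farnesyl diphosphate synthase, with -0.45 against vehicle (adjusted p = 1) and -0.47 against prolonged (adjusted p = 0.533). In dendritic cells at 4 h it was Msmo1 (-0.37, adjusted p = 0.808). Cyp27a1, an oxysterol-forming enzyme, was called 2.1903 higher (limma adjusted p = 1.56e-06) in the T cell array of SB00526228 that carried granulocyte and dendritic cell markers, whose part in this was not tested. It was the only call among 4 genes of sterol esterification and oxysterols. Among 7 proliferation genes the only call was Plk1, a mitotic kinase, at -0.83 (limma adjusted p = 0.03) in spleen macrophages given SB00526221.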

How the data were processed

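Expression was measured on Affymetrix Mouse Gene 1.0 ST arrays of 6 sorted populations. The deposited values are linear intensities per probe set; per the submitters' processing notes the authors used Affymetrix Power Tools and RMA, with versions and the set of arrays normalized together not given in the sources used here. They ran from 5.106 to 22294 and were taken as log2. Of 24922 probe sets, 21425 had 1 gene symbol, 1399 several (left out) and 2098 were unnamed here. For each of 19752 genes the brightest probe set on average was used. Genes above the array's median on at least 3 arrays of a population were tested there with limma 3.58.1 (R 4.3.3), with group and experiment as terms and Benjamini-Hochberg adjustment over all genes tested. Vehicle arrays of the populations were compared without an experiment term, and there the filter of 3 arrays was applied to the vehicle arrays of all populations together. Groups of 1 array were assumed to vary like the others. No pair of arrays was identical (highest correlation 0.9972). The scripts were tested on simulated data. All members were named in every comparison; of other lists, counts and the gene with the largest limma statistic were given. The members and lists were chosen with earlier results of these data known. Precision is limited by the number of arrays. Alternatives were the experiment term, array weights, a pseudocount of 16, filters, within-experiment values and leaving out each array.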

Additional observations from a re-analysis of the deposited data

Results flagged for a closer look

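Of 133 combinations of a member with a group of 4 to 10 arrays, 9 had 1 array far from the others of its group, by the size of its gap against the group's range. Chance flags about 1 in 20 such groups, and no explanation was weighed.

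In peritoneal macrophages, the SB00513404 array taken 6 h after a single treatment (replicate 3, experiment J23) was high for both squalene genes. Sqle was at 7.233 with the others at 6.313 to 6.514, and Fdft1 at 9.091 with the others at 8.069 to 8.421. In spleen macrophage vehicle arrays, Hmgcs1 was low in replicate 1 of J2, at 6.828 against 7.442 to 7.898, and Idi1 was low in replicate 7 of J8, at 7 against 7.522 to 7.847. The first of these is the only J2 vehicle array of that population, on which the 4 h comparison there rests within the experiment.

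In T cell vehicle arrays of J8, Hmgcs1 was low in replicate 6, at 7.28 against 7.995 to 8.513, and Lss was low in replicate 7, at 6.723 against 7.384 to 7.868. In NK cells, Idi1 was high in SB00526222 replicate 4, at 7.759 against 6.526 to 6.844, and Insig1 was high in SB00526226 replicate 4, at 8.285 against 7.644 to 7.722. In granulocyte vehicle arrays, Sqle was high in replicate 1 of J2, at 6.915 against 6.333 to 6.49, where it was below the array median in all 5 arrays.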

How the results depend on the processing

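The member differences called between vehicle populations numbered 66 to 73 over 6 settings and 68 to 74 when each of 39 arrays was left out, against 70 as reported, and no called difference reversed. With the animal as a replicate block (a random block, since 11 of 19 vehicle animals gave over 1 vehicle array, with a consensus correlation of 0.13) 72 were called, 70 of them called by both fits. In the comparisons of treatments, 425 of 428 alternative counts of called members were 0. The exceptions were array weights in late peritoneal macrophages, with 2 called (Hmgcs1 -0.44, Insig1 -0.36, limma adjusted p = 0.0289 and 0.0483, 9.6% of genes called), array weights in NK cells at 4 h against prolonged, with 1 called (Lss -0.35, limma adjusted p = 0.0085, 10% of genes called), and no experiment term in T cells at 4 h against prolonged, with 1 called (Fdft1 -0.48, limma adjusted p = 0.0407, 5.34% of genes called). The cause was not tested.

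The mean difference over the members moved in these cases. It was 0.01306 within J23 for late peritoneal macrophages (-0.2008 as reported). With no experiment term it was -0.1494 for spleen macrophages at 4 h (0.1047), -0.02245 for T cells at 4 h (-0.2949), -0.06359 for T cells at 4 h against prolonged (-0.3476), 0.5041 for granulocytes at 4 h (0.2858) and 0.3308 for granulocytes at 4 h against prolonged (-0.1222). With the experiment as a random block the last 2 were 0.4799 and 0.2698. Prolonged granulocytes had 0.1863 within J2, 0.712 within J3 and 0.1132 within J6 (0.437). Leaving out 1 array gave 0.1385 (without vehicle replicate 2) to 0.4919 there, 0.1476 to 0.4506 (without vehicle replicate 1) at 4 h, and -0.3065 to 0.06216 (without SB00526222 replicates 1 and 2 at 4 h) at 4 h against prolonged. Of 935 alternative values 18 moved beyond the limit, and groups of 1 array could not be left out. Splitting J8 by hour, comparing its hours and leaving out the T cell array of SB00526228 were chosen after seeing the data. In the J8 comparison the mean of -0.3573 ran from -0.3667 to -0.2734 over settings and from -0.4709 to -0.2438 without 1 array.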
